A study of Mus musculus with 321 samples.

Results

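The genes of the TEAD transcription factors and of their partners and targets were examined in the open-chromatin, Tcf-1 binding and repressive histone maps of this mouse series. The 8 genes were chosen by name from 21887 protein-coding genes. They were Tead1, Tead2, Tead3 and Tead4, the coactivator genes Yap1 and Wwtr1, and the target genes Ccn1 and Ccn2. For each gene, everything that overlapped the gene body and 50 kb on each side was taken, here called its window, on the mouse build GRCm38. The rule itself uses no measured value, but the genes were chosen with earlier results of these data known.

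TEAD proteins bind DNA but activate transcription weakly on their own. They depend on YAP, encoded by Yap1, and its paralogue TAZ, encoded by Wwtr1, which bind TEADs and not DNA. The Hippo kinase cascade phosphorylates YAP and TAZ and keeps them out of the nucleus, so that TEAD targets are active in spread, growing or stretched cells such as cultured fibroblasts. Ccn1 and Ccn2, formerly Cyr61 and Ctgf, encode secreted matricellular proteins and are the usual reporters of YAP and TEAD activity. Tcf-1, encoded by Tcf7, is the HMG-box factor of T cell development and the subject of the series.

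The ATAC-seq lists, which give the positions of open chromatin, came from 4 groups. NIH3T3 cells, a line of NIH/Swiss mouse fibroblasts at passages 8 to 12, carried a retrovirus (RV) with Tcf-1 (Tcf-1 RV, n = 4) or an empty retrovirus (Empty RV, n = 4). CD4+CD8+ double-positive (DP) thymocytes, sorted from animals, were Tcf-1-/- deltaVII (KO, n = 2) or wild type, labelled C56BL/6 (WT, n = 2). NIH3T3 is a single line, and neither the promoter of the retrovirus nor the age of the animals was given in the sources used here. Nothing in the labels says whether the replicates were separate cultures or animals, so the p-values below measure only the spread between these libraries. Tcf-1 ChIP-seq summits came as 1 pooled list of Tcf-1 RV cells. Islands of the histone marks H3K27me3 and H3K9me3 were from NIH3T3 cells without Tcf-1, with 2 libraries a mark. An ATAC-seq list is a bulk measurement, so a larger share of open cells and greater openness per cell cannot be told apart.

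The lists held 47623, 43527, 36583 and 62639 peaks for Tcf-1 RV replicates 1 to 4, and 22778, 34601, 46819 and 58026 for Empty RV replicates 1 to 4. KO lists held 11171 and 12209 peaks, against 23249 and 30985 in WT. Peak heights and read depth are unknown, and longer lists hold more peaks everywhere, so counts in a window are also given per 10000 listed peaks. Within the Tcf7 gene, Tcf-1 RV libraries listed 7, 8, 5 and 7 peaks and Empty RV libraries 1, 1, 2 and 5, against 1 and 1 in KO and 2 and 2 in WT. A peak list does not measure Tcf-1 protein or the deleted exon. Of 9 DP thymocyte marker genes, 1 and 4 had a peak within 1 kb of a gene end in KO libraries and 8 and 9 in WT libraries, against 0 to 1 in the 8 NIH3T3 libraries. Of 9 fibroblast marker genes, 7 to 8 had one in Tcf-1 RV and 3 to 8 in Empty RV libraries, against 0 in KO and 1 to 2 in WT.

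Of the 8 genes, 5 had promoters in the RefSeq table of GRCm38.p6, which covers 250 bases before and 50 after a start site. The letters GGAATG, with their reverse complement CATTCC, are the core of the site TEAD factors bind, and CTTTGAT or CTTTGAA, with ATCAAAG and TTCAAAG on the other strand, that of the TCF family. The TEAD core was found in the promoters of 4 of the 5 genes, namely Tead3, Yap1, Wwtr1 and Ccn1, but not of Tead2. These 5 genes have 8 listed promoters, some of them overlapping, and 6 of the 8 held the TEAD core, beside 14.7% of all 32851 promoters. The TCF core was found in 1 of the 5 genes, Wwtr1, whose 2 promoters overlap and share the match. So 2 of the 8 promoters held the TCF core, beside 8.65% of all promoters. Promoters of Tead1, Tead4 and Ccn2 were not analysed here. The 3 promoters below are shown because the results turn on them: Ccn1, open in every fibroblast library; Wwtr1, with a Tcf-1 summit on a TCF core; and Yap1, open in WT and not in KO thymocytes. All lie on the minus strand and are written 5′ to 3′ along the gene, with TEAD and TCF cores in capitals.

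Ccn1, chr3:145649936-145650235: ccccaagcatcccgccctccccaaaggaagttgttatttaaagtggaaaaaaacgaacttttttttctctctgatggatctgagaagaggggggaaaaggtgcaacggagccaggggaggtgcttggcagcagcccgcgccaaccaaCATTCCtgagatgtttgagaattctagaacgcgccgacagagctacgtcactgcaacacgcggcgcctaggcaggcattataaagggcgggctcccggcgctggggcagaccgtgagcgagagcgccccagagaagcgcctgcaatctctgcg

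Wwtr1, chr3:57575861-57576160: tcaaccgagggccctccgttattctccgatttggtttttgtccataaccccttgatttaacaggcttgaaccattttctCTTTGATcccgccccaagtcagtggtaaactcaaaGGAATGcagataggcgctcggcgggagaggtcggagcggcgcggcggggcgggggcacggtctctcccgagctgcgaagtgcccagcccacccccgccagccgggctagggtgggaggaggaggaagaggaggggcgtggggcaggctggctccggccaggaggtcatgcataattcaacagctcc

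Yap1, chr9:8004547-8004846: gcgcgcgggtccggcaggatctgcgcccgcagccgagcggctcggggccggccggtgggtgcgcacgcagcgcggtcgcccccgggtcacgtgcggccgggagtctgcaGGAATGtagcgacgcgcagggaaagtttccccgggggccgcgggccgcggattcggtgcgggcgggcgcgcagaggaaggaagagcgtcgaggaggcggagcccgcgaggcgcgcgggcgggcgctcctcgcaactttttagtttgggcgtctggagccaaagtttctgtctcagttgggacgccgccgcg

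In Ccn1 the capitals are CATTCC, 103 bases before the start site. In Wwtr1 they are CTTTGAT, at chr3:57576075-57576081, followed by GGAATG at chr3:57576041-57576046. In Yap1 they are GGAATG, at chr9:8004732-8004737. A match describes letters only, and no factor was measured at the TEAD cores.

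The first comparison was between the fibroblast and thymocyte libraries. Open regions lay inside 7 of the 8 genes more densely in NIH3T3 than in DP thymocytes, and the windows of Tead1, Wwtr1 and Ccn1 were open in fibroblasts and nearly empty in thymocytes. Tead2 was the reverse, through peaks at its neighbours. Cell type and library preparation cannot be told apart here.

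Tead1 had 12, 10, 8 and 18 peaks in its window in Tcf-1 RV and 4, 9, 12 and 13 in Empty RV libraries, against 0 and 0 in KO and 0 and 1 in WT. Every fibroblast library was above every thymocyte library. Per 10000 listed peaks the values were 2.38 ± 0.338 in NIH3T3 (SD, n = 8) and 0.0807 ± 0.161 in DP (SD, n = 4), with an adjusted p of 0.0145 by an exact two-sided permutation test adjusted over 19196 genes. This is the smallest adjusted p that the test can give, and 14.5% of genes passed it with more peaks in NIH3T3 and 29.9% with fewer. The call for Tead1 was lost when the same number of widest peaks was kept from every library, with a difference of 1.34 and an adjusted p of 0.103 by the same permutation test.

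Wwtr1, which encodes TAZ, had 10, 10, 9 and 16 peaks in Tcf-1 RV and 7, 9, 12 and 13 in Empty RV libraries, against 0 and 0 in KO and 0 and 1 in WT. Ccn1 had 8, 9, 5 and 7 in Tcf-1 RV and 5, 8, 8 and 8 in Empty RV libraries, against 0 and 0 in KO and 0 and 1 in WT. At both genes, as at Tead1, every NIH3T3 library was above every DP library, also per 10000 listed peaks, an order that 9.98% of genes showed, while 17.8% showed the reverse. Per 10000 listed peaks Wwtr1 stood at 2.49 in NIH3T3 and 0.0807 in DP, and Ccn1 at 1.73 in NIH3T3 and 0.0807 in DP, both with an adjusted p of 0.0145 by the exact permutation test.

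The window of Tead2 was the single one of the 8 that passed the test with fewer peaks per 10000 in NIH3T3. It had 1, 0, 1 and 2 peaks in Tcf-1 RV and 0, 1, 2 and 5 in Empty RV libraries, against 3 and 2 in KO and 3 and 3 in WT. The values were 0.298 in NIH3T3 and 1.65 in DP per 10000 listed peaks, with an adjusted p of 0.0145 by the exact permutation test. That call was lost with the same number of widest peaks from every library, with a difference of -1.45 and an adjusted p of 0.0837, and without division by list length, at -1.25 peaks and 0.390, by the same permutation test. None of the DP peaks lay in Tead2: they lay at or beside Pth2, Kash5 and Cd37, a lymphocyte tetraspanin, which are 3 of the 8 other protein-coding genes of this window. The Tead2 promoter itself was open in 3 of 4 Tcf-1 RV and 3 of 4 Empty RV libraries, against none of the KO and WT libraries.

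Tead3, Tead4, Yap1 and Ccn2 did not pass in the 50 kb windows. Their NIH3T3 minus DP differences were -0.204, 0.496, 0.308 and 0.490 peaks per 10000, with adjusted p of 0.335, 0.163, 0.340 and 0.227 by the exact permutation test. These differences pool Tcf-1 RV with Empty RV and KO with WT. In the same order, the means were 1.34, 1.64, 1.37 and 0.951 in Empty RV alone, and 1.45, 1.56, 1.29 and 1.45 in WT alone. At Tead3 and Ccn2 the WT mean was thus above that of Empty RV, and at Ccn2 the KO mean was 0. With the same number of widest peaks from every library Ccn2 passed, at a difference of 1.12 and an adjusted p of 0.0340 by the same permutation test. Peaks at neighbouring genes enter these windows, so the gene bodies were also counted alone. There, 7 of the 8 genes had more peaks per 10000 in NIH3T3 than in DP, with an adjusted p of 0.0199 each by the exact permutation test, while 12.4% of 15151 genes with a peak in the body did so. The exception was Tead2, at 0.186 in NIH3T3 and 0 in DP, with an adjusted p of 0.110 by the same permutation test.

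Inside Tead4 the Tcf-1 RV libraries listed 5, 6, 3 and 5 peaks and the Empty RV libraries 2, 4, 3 and 4, against 0 and 0 in KO and 0 and 1 in WT. Inside Yap1 the counts were 3, 3, 4 and 7 in Tcf-1 RV and 1, 2, 4 and 6 in Empty RV, against 0 and 0 in KO and 1 and 1 in WT. Inside Tead3 they were 1, 1, 3 and 2 in Tcf-1 RV and 1, 1, 1 and 2 in Empty RV, and inside Ccn2 1, 1, 1 and 2 in Tcf-1 RV and 1 in each Empty RV library, with 0 in every KO and WT library for both genes. All 8 fibroblast libraries thus had a peak inside each of these 4 genes, and the groups met only at Yap1, where Empty RV replicate 1 and both WT libraries had 1 peak.

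**Figure D1:**
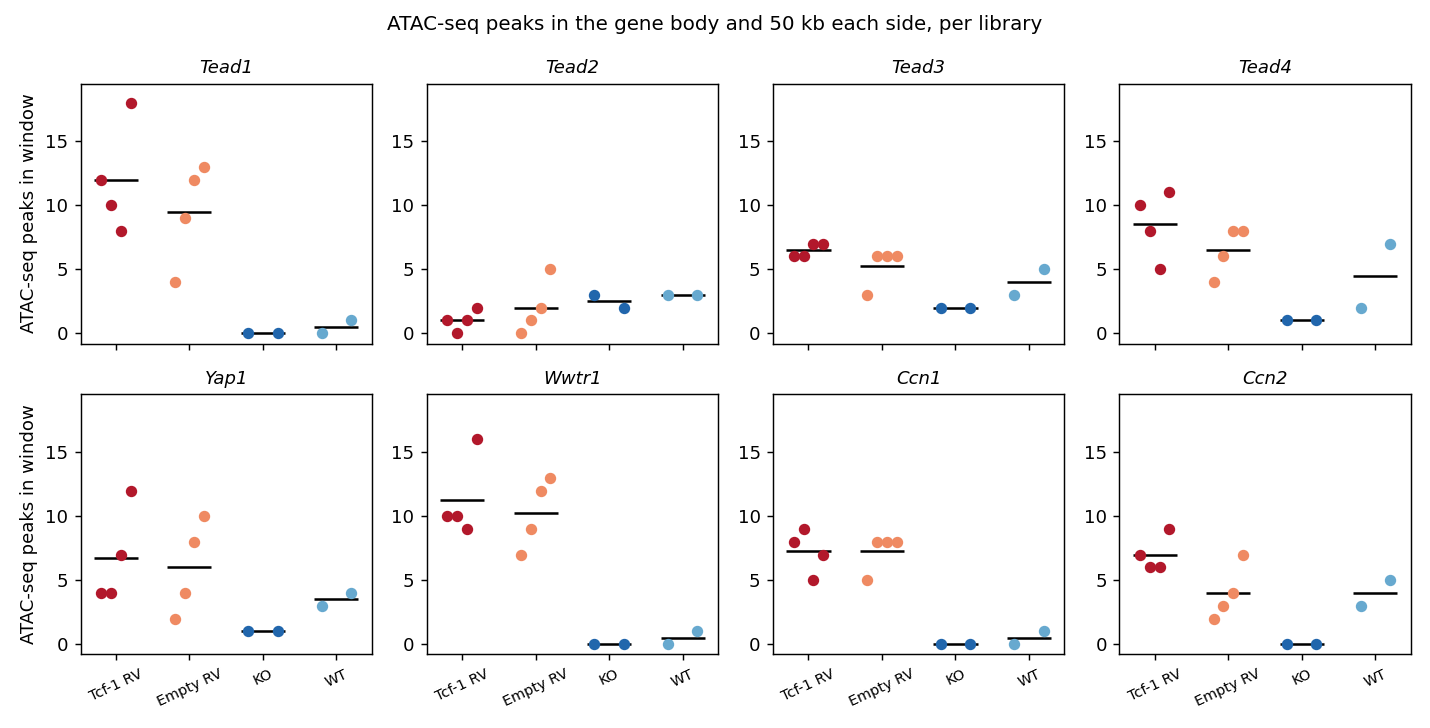
Number of ATAC-seq peaks (vertical axis) in the window of each gene, for each Tcf-1 RV, Empty RV, KO and WT library (points) with the mean of the group (line). Tead1, Wwtr1 and Ccn1 have at most 1 peak in any KO or WT library and at least 4 in every fibroblast library.

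Merged over the 12 libraries, the 8 windows held 108 open regions. Of these, 20 were listed in all 8 NIH3T3 and no DP library, the single pattern with more peaks in NIH3T3 that reached an adjusted p under 0.05 (0.0154, Fisher's exact test). That is 18.5% of the regions, while 11.3% of all 93162 regions had the pattern. The count of 20 fell to 4 with the same number of widest peaks from every library and to 13 with peaks counted only where they spanned 50% or more of the region. The 20 comprised 6 regions at Wwtr1, 4 at Tead1, 4 at Ccn1, 2 at Tead4, 2 at Ccn2 and 1 each at Tead3 and Yap1. The Wwtr1 promoter (chr3:57575648-57576765), the Ccn1 promoter (chr3:145649877-145650237), a gene end of Tead4 (chr6:128300183-128301012) and that of Ccn2 (chr10:24595271-24596078) were among them. In the reverse pattern, listed in all 4 DP and no NIH3T3 library, there was 1 region, at Cd37 in the Tead2 window (chr7:45238823-45239379), and 1.78% of all regions had it. Another 4 regions were listed in all 12 libraries, and all 4 lay outside the 8 genes, at Fance, Rpl10a and Cfap300 and 26024 bp from Tead4.

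**Figure D2:**
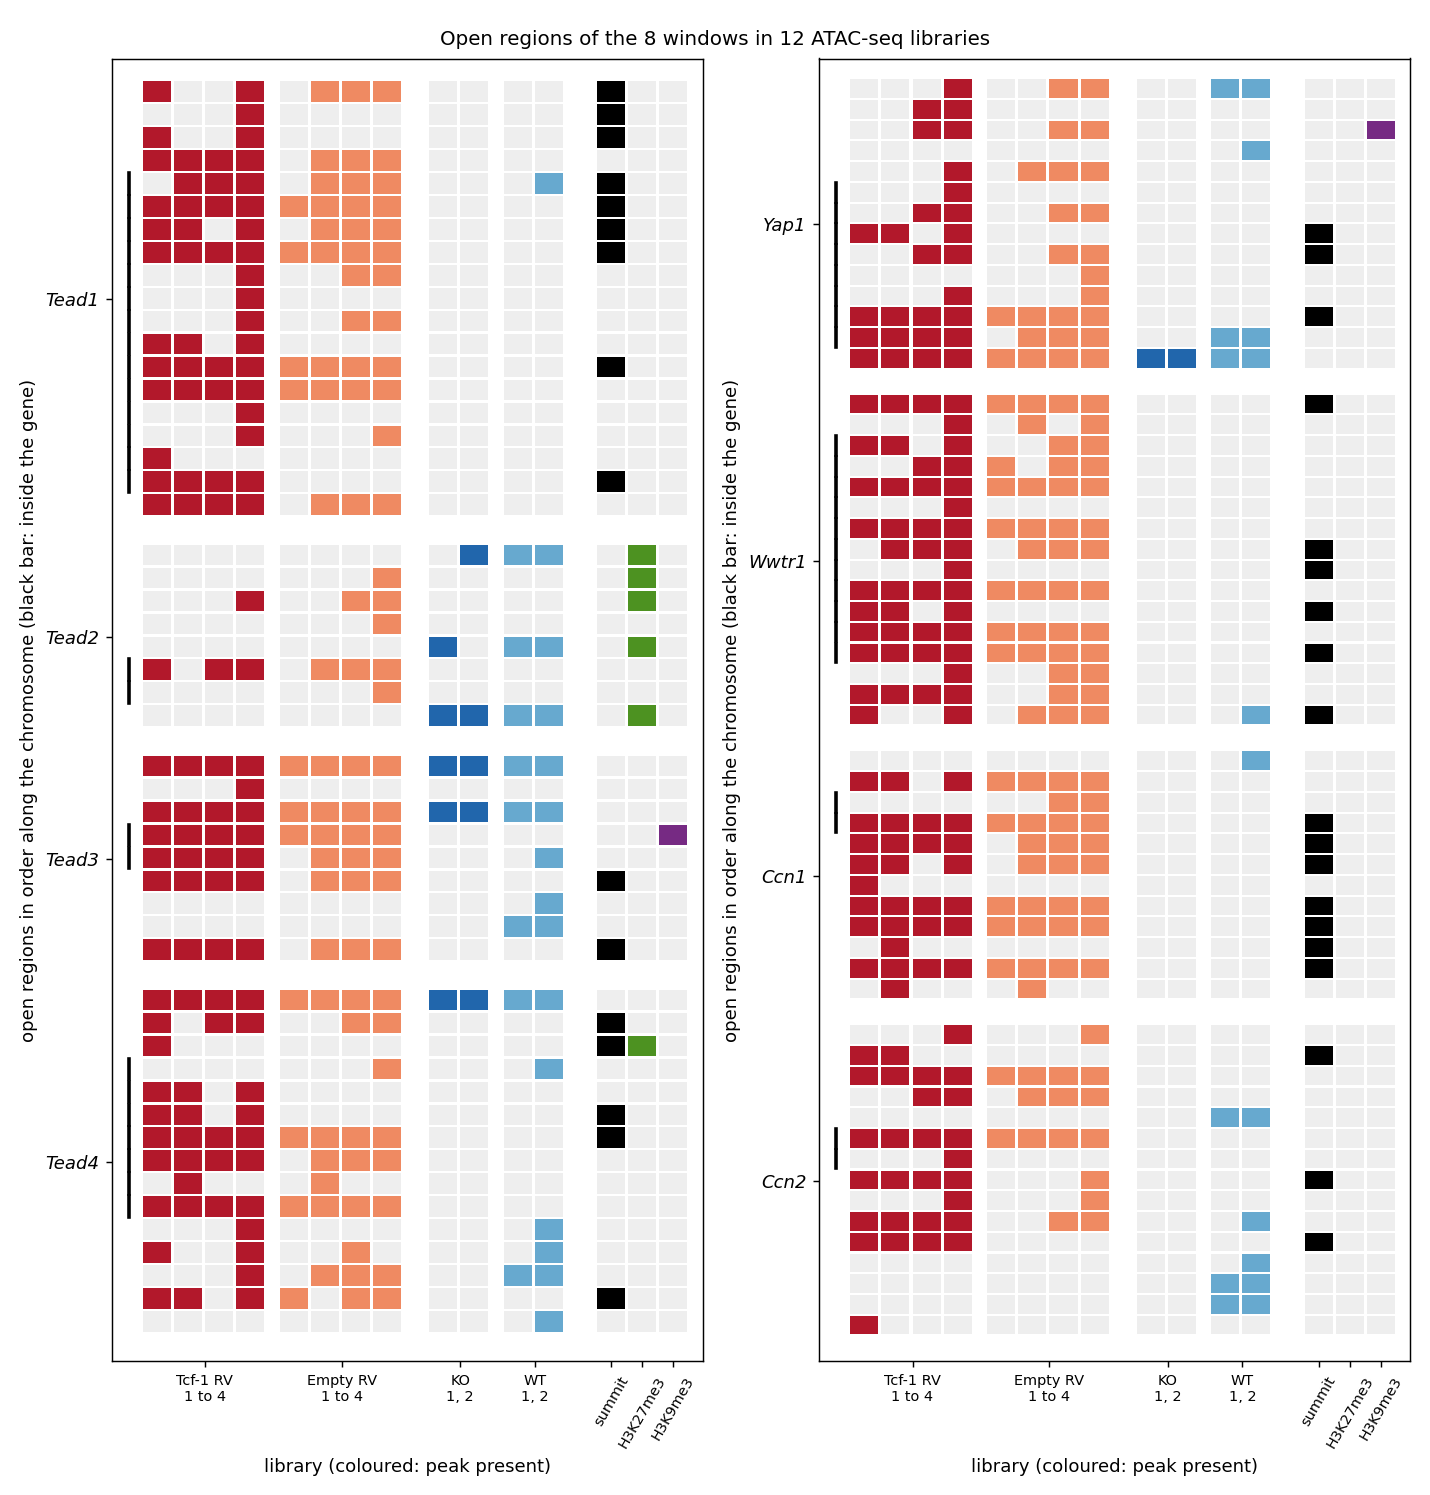
Each row is 1 open region of a window, in order along the chromosome, and each column 1 library of Tcf-1 RV, Empty RV, KO or WT, coloured where the library lists a peak. The last 3 columns mark a Tcf-1 summit, an H3K27me3 island and an H3K9me3 island, and black bars the regions inside the gene.

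The second comparison asked whether Tcf-1 in fibroblasts came with open regions near these genes. The windows held 96 of the 77882 NIH3T3 regions, and 24 of the 96, or 25%, were open in all 8 libraries, beside 24% of all regions. A region was called gained when all 4 Tcf-1 RV and no Empty RV library listed it, and lost in the reverse case; either pattern has p = 0.0286 by Fisher's exact test, and an adjusted p of 1 over all regions. The 8 windows held 2 gained regions, 2.08% of their regions, while 1.08% of all regions were gained. They held no lost region, and 0.110% of all regions were lost; under the looser rule of at least 3 Empty RV and no Tcf-1 RV library there was also none, against 0.578% of all regions.

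One gained region lay inside Tead1, at chr7:112884073-112884438, with a Tcf-1 summit of score 69.96 at chr7:112884232. The other, at chr10:24634347-24634753, lay 35664 bp from Ccn2 and 3161 bp from Enpp1, a nucleotide pyrophosphatase gene, and had a summit of score 56.3. So both gained regions carried a Tcf-1 summit, as did 81% of all gained regions. Of the 96 regions of the windows, 36.5% carried one, and of all NIH3T3 regions 27%.

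A further 5 regions were listed in Tcf-1 RV replicates 1, 2 and 4 and in no Empty RV library. These were 1 inside Tead1 (chr7:112797679-112797975), 2 inside Tead4 (chr6:128265294-128265603 and chr6:128280690-128281070), 1 inside Yap1 (chr9:7953054-7953412) and 1 inside Wwtr1 (chr3:57554625-57555008). The Yap1 and Wwtr1 regions carried summits of score 114 and 90.4, the second Tead4 region 1 of 9.11, and the others none. With them the count was 7 regions, and 3.66% of all regions had at least 3 Tcf-1 RV and no Empty RV library. Replicate 3, which lacked all 5, has the shortest Tcf-1 RV list, and 89.7% of the 2012 regions of this kind in the genome were absent from it. Counted by same-numbered pairs, 8 regions were listed with Tcf-1 RV and not with Empty RV in at least 3 of 4 pairs and never the other way round, and 4.52% of all regions were.

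The file names of replicates 1 and 2 carry another day tag than those of replicates 3 and 4, and within these batches the counts differed. In replicates 1 and 2, 12 regions of the windows were listed in both Tcf-1 RV and neither Empty RV library, in a pattern of 17.7% of all regions, and none in the reverse, which 0.717% had. They comprised 4 at Ccn2, 3 at Wwtr1, 2 at Tead1, 2 at Tead4 and 1 at Yap1. In replicates 3 and 4 there were 3 such regions, at Tead1, Yap1 and Ccn2, in a pattern of 2.11% of all regions. The reverse was found once there, inside Ccn1, and at 3.46% of all regions.

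In the Ccn2 window some regions were shared by all fibroblast libraries, some were listed mostly with Tcf-1 RV, and others were neither. A region 5762 bp from the gene (chr10:24589261-24589680) was listed in 2 Tcf-1 RV and 3 Empty RV libraries. Another, 11253 bp from it (chr10:24609936-24610271), was listed in 1 Tcf-1 RV and 1 Empty RV library. The gene itself (chr10:24595271-24596078) and a region 14000 bp from it (chr10:24581109-24581442) were open in all 8 libraries. A region 3780 bp from the gene (chr10:24602463-24602945), with a summit of score 73.5, was listed in all 4 Tcf-1 RV libraries and in Empty RV replicate 4. When only the widest peaks were kept, 22778 from every library, this region became the single gained one of the 8 windows. A region 30478 bp from Ccn2 (chr10:24564497-24564964) was listed in Tcf-1 RV replicates 1 and 2 alone, with a summit of score 124, at or above 98.1% of the scores.

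Over its whole window Ccn2 had 7, 6, 6 and 9 peaks in Tcf-1 RV libraries, against 2, 3, 4 and 7 in Empty RV libraries. Per 10000 listed peaks the values were 1.47, 1.38, 1.64 and 1.44 in Tcf-1 RV, against 0.878, 0.867, 0.854 and 1.21 in Empty RV. The lowest Tcf-1 RV library was above the highest Empty RV library, and all 4 same-numbered pairs were higher with Tcf-1 RV. The means were 1.48 ± 0.112 in Tcf-1 RV and 0.951 ± 0.170 in Empty RV (SD, n = 4 each), with p = 0.0286 by an exact two-sided permutation test, the smallest 4 against 4 libraries allow, and an adjusted p of 0.822 over 18954 genes. The exact sign-flip test over the 4 pairs gave p = 0.125, the smallest that 4 pairs allow. Groups that did not overlap in this direction were found at 1.67% of genes and in the other at 1.80%, and no gene passed the adjusted test, 659 having an unadjusted permutation p under 0.05. In these 50 kb windows Ccn2 was the single one of the 8 genes whose groups did not overlap. The Ccn2 difference was -0.0204 with p = 0.8 in the gene body alone, 0.0942 with p = 0.429 with 10 kb on each side, and 3.00 peaks with p = 0.114 without division by list length, all by the exact permutation test.

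Ccn1 was lower with Tcf-1 RV in all 4 same-numbered pairs per 10000 listed peaks, but not in the peaks themselves. Its window had 8, 9, 5 and 7 peaks in Tcf-1 RV libraries, against 5, 8, 8 and 8 in Empty RV libraries. Per 10000 listed peaks the values were 1.56 ± 0.410 in Tcf-1 RV and 1.90 ± 0.434 in Empty RV (SD, n = 4 each), a difference of -0.341 with p = 0.257 by the exact permutation test. The groups overlapped, and the exact sign-flip test over the 4 pairs gave p = 0.125, the smallest that 4 pairs allow. Without division by list length the mean difference was 0 peaks. In the gene body alone every Tcf-1 RV library listed 1 peak, against 1, 1, 2 and 2 in Empty RV, a difference of -0.157 per 10000 with p = 0.0286 by the exact permutation test and an adjusted p of 0.813. The promoter was open in all 8 libraries, and a region inside the gene (chr3:145649081-145649535) was listed in Empty RV replicates 3 and 4 alone.

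**Figure D3:**
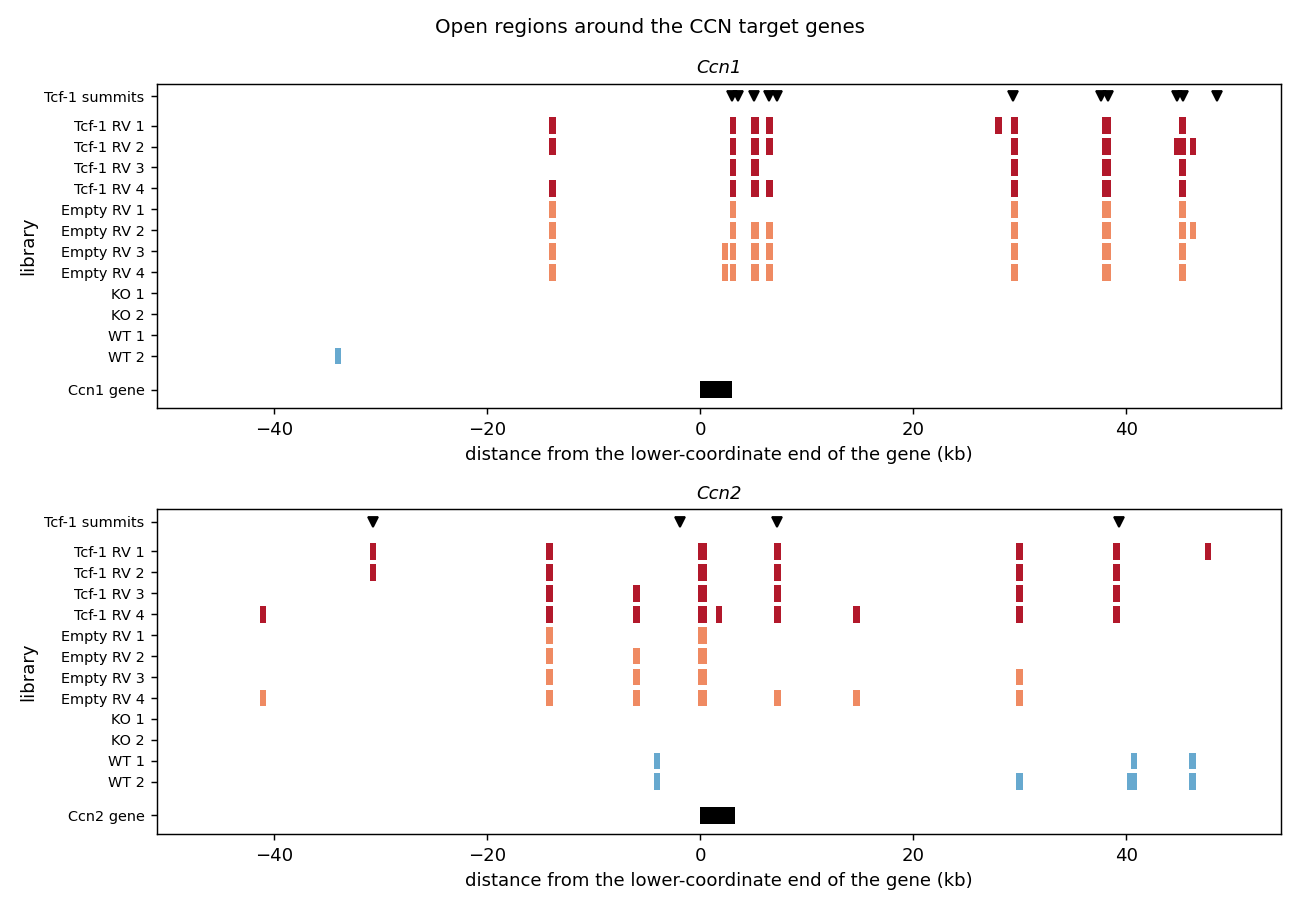
ATAC-seq peaks (bars) of the 12 libraries and Tcf-1 summits (triangles) around Ccn1 and Ccn2, by distance in kb from the end of the gene with the lower coordinate. Around Ccn2 several regions are listed mainly in Tcf-1 RV libraries, around Ccn1 the fibroblast libraries share most regions, and the KO libraries list none around either gene.

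For the factors and coactivators the Tcf-1 RV minus Empty RV differences per 10000 listed peaks were small beside the spread between libraries. They were 0.179 for Tead1, -0.194 for Tead2, 0.0757 for Tead3, 0.121 for Tead4, 0.0305 for Yap1 and -0.266 for Wwtr1, with unadjusted p between 0.229 and 0.971 by the exact permutation test. The median difference was 0.0531 over the 8 genes, beside -0.0192 over all genes tested. The promoters of Tead3 and Yap1 were open in 4 Tcf-1 RV and 3 Empty RV libraries, and those of Wwtr1 and Ccn1 in 4 and 4. At Tead3 and Yap1 the Empty RV library without the peak was replicate 1, the shortest list.

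The third comparison asked which regions Tcf-1 KO thymocytes lacked. DP libraries listed 26 regions in the 8 windows, and just 3 of them lay inside 1 of the genes. Both WT libraries listed 14 regions, of which 7, or 50%, were in neither KO library. Of all regions listed in both WT libraries, 45.7% were in neither KO library, so the share in these windows was close to that of the genome; counted over all DP regions, the genome share was 31.7%. Without WT replicate 1, the shorter WT list, the 7 became 20. No region was listed in both KO and neither WT library, a pattern of 0.142% of all DP regions. With 2 against 2 libraries no exact test can fall below 0.333, and the patterns are descriptions.

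The region at the Yap1 promoter (chr9:8004349-8004905) was the single lost region that overlapped 1 of the 8 genes. It covers the GGAATG shown above, and both WT libraries and neither KO library listed it. In fibroblasts the overlapping region (chr9:8004196-8005098) was listed in 4 Tcf-1 RV and 3 Empty RV libraries, so the Yap1 promoter was open in WT thymocytes and fibroblasts alike. A second region of the window, 34093 bp from Yap1 on the side of Birc3, an inhibitor of apoptosis, had the same DP pattern (chr9:7897660-7897906). The region at Cfap300 was kept in all 4 DP libraries.

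At Ccn2 all 3 regions of both WT libraries were absent from both KO libraries: chr10:24591287-24591501, 3941 bp from the gene, chr10:24635953-24636366, 1548 bp from Enpp1, and chr10:24641538-24641797 in Enpp1. None of the 3 was open in any fibroblast library. None carried a summit of the Tcf-1 RV fibroblast list, which does not show Tcf-1 binding in thymocytes. The Ccn2 window therefore had 0 and 0 peaks in KO libraries, against 3 and 5 in WT libraries. The last 2 lost regions were chr17:28374564-28374930, between Tead3 and Tulp1, and chr6:128334482-128335156 at Tulp3 in the Tead4 window.

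Per 10000 listed peaks, the KO and WT values were 2.16 and 1.13 for Tead2, 1.71 and 1.45 for Tead3, 0.857 and 1.56 for Tead4, 0.857 and 1.29 for Yap1, and 0 and 1.45 for Ccn2, and they were 0 and 0.161 for Tead1, Wwtr1 and Ccn1. KO and WT libraries did not overlap at Tead2 and Tead3, higher in KO, and at Yap1 and Ccn2, lower in KO. Over all genes, 44.2% were higher and 20.3% lower in this way. In the peaks themselves Tead2 and Tead3 were not higher in KO. Tead2 had 3 and 2 peaks in KO and 3 and 3 in WT, and Tead3 had 2 and 2 in KO and 3 and 5 in WT. The KO lists are shorter than the WT lists, and KO libraries had a peak at fewer DP marker genes, as given above. The part of both in these values was not tested. With the widest 11171 peaks from every DP library, 1 lost region remained, the Yap1 promoter, and 1 region was listed in both KO and neither WT library, at Rpl10a in the Tead3 window.

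Tcf-1 binding was described from the pooled summit list, which has no replicates, and whose score has an unstated scale. The 8 windows held 72 of its 40562 summits. Ccn1 had 10.7 summits per 100 kb of window, at or above 99.3% of all genes, Tead1 7.33 and Wwtr1 7.26. Tead4 had 4.03, Ccn2 3.87, Yap1 3.48 and Tead3 2.52, and Tead2 had 0.850 with its single summit. The median was 3.95 over the 8 genes, beside 1.59 over all windows.

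Of the 11 summits at Ccn1, 1 lay at the promoter, at chr3:145649968, with a score of 5.50, at or above 6.17% of the scores of the list. The strongest at this gene was at chr3:145652018, 2033 bp from the gene, with a score of 47.7. At Wwtr1 the promoter summit, at chr3:57576078 with a score of 33.8, lay within the CTTTGAT capitals of the sequence shown above, in a region open in all 8 fibroblast libraries. The strongest summit of the 8 windows, with a score of 136, was at chr3:57411807 in the Wwtr1 window, 13334 bp from Tm4sf4 at the nearest edge of its region, which was also open in all 8.

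Summits of the 8 windows differed in score by the state of the chromatin beneath. Of the 72, 36 lay in a region open in at least 1 fibroblast library, or 50%, beside 53.5% of all summits. The 11 in regions open with Tcf-1 RV only had a median score of 42.6, the 25 in regions open in an Empty RV library 15.6, and the 36 with no open region 13.4. Over all summits of the list the medians were 26.7, 21 and 12.8 in the same order. The first class takes regions listed in any Tcf-1 RV and no Empty RV library, and just 2 of its 11 summits lay in gained regions. Its median, 42.6, was the score of a summit in a region listed in 1 Tcf-1 RV library (chr7:112656530-112656812). The highest scores of this class were at Ccn2, Yap1, Wwtr1 and Tead1.

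**Figure D4:**
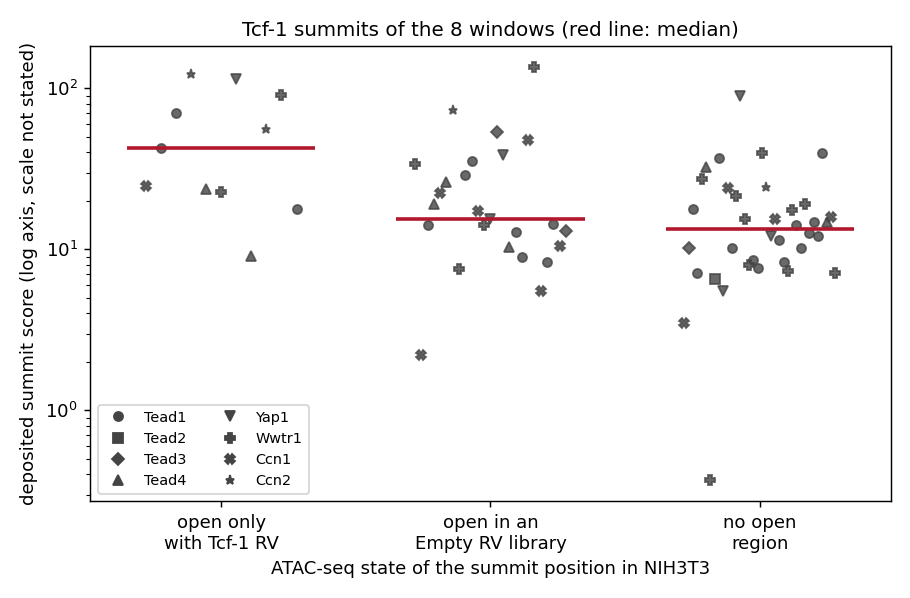
Deposited score (log axis, scale not stated) of each of the 72 Tcf-1 summits, by whether the position was open only with Tcf-1 RV, open in an Empty RV library or in no open region of NIH3T3 cells. Open only with Tcf-1 RV means listed in any Tcf-1 RV library and no Empty RV library. Symbols mark the genes and red lines the medians, which are 42.6, 15.6 and 13.4.

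Repressive islands of both replicates in NIH3T3 cells without Tcf-1 covered an end of 1 of these genes, Yap1. No gene end lay in an H3K27me3 island of both replicates, and 16.5% of all genes had one there; H3K9me3 covered 1 gene end, that of Yap1, and 9.38% of all genes had this mark there. H3K27me3 is the mark of Polycomb repression and H3K9me3 that of constitutive heterochromatin. Ccn1 and Ccn2 had no island shared by both replicates of either mark anywhere in their windows, as was so for H3K27me3 in 32.6% of all genes and for H3K9me3 in 43.4%. Islands of a single replicate did lie there. At Ccn1 they were H3K27me3 in replicate 1 (ChIP over control ratio 1.45) and H3K9me3 in replicate 2 (ratios 2.40 and 2.16). At Ccn2 it was H3K9me3 in replicate 1 (ratio 1.62). The median share of the window in islands over the 8 genes was 3.99% for H3K27me3 and 6.43% for H3K9me3, beside 6.24% and 1.88% over all genes.

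The Tead2 window stood apart, since H3K27me3 islands of both replicates covered 74.2% of it, more than in 98.9% of all genes, and 0% of the gene. In replicate 1 the flanking islands ended at chr7:45211599 and began again at chr7:45236201, with a shorter one between that replicate 2 lacked, and in replicate 2 they ended at chr7:45211799 and began again at chr7:45236601. Tead2, at chr7:45215792-45233468, lay in that gap, and its promoter was open in 6 of the 8 fibroblast libraries. An H3K9me3 island reached closer, to chr7:45214799 in replicate 1 and chr7:45215199 in replicate 2, within 1 kb of the gene.

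H3K9me3 islands of both replicates covered 20.9% of Tead3 and 17% of Wwtr1. The Tead3 island had 89 ChIP reads at a ChIP over control ratio of 1.43 in replicate 1, and 175 reads at a ratio of 1.28 in replicate 2. It contained the intragenic region chr17:28340822-28341546, open in all 8 fibroblast libraries. At Yap1 the island spanned the gene end opposite to the promoter, with 238 reads at a ratio of 7.37 in replicate 1 and 332 at 6.06 in replicate 2. The intragenic regions of Yap1 and Wwtr1 listed in Tcf-1 RV replicates 1, 2 and 4 alone lay outside islands found in both replicates. The Wwtr1 region lay in an H3K9me3 island that was found in replicate 2 alone (chr3:57554001-57561199), with 200 reads at a ratio of 1.80.

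**Figure D5:**
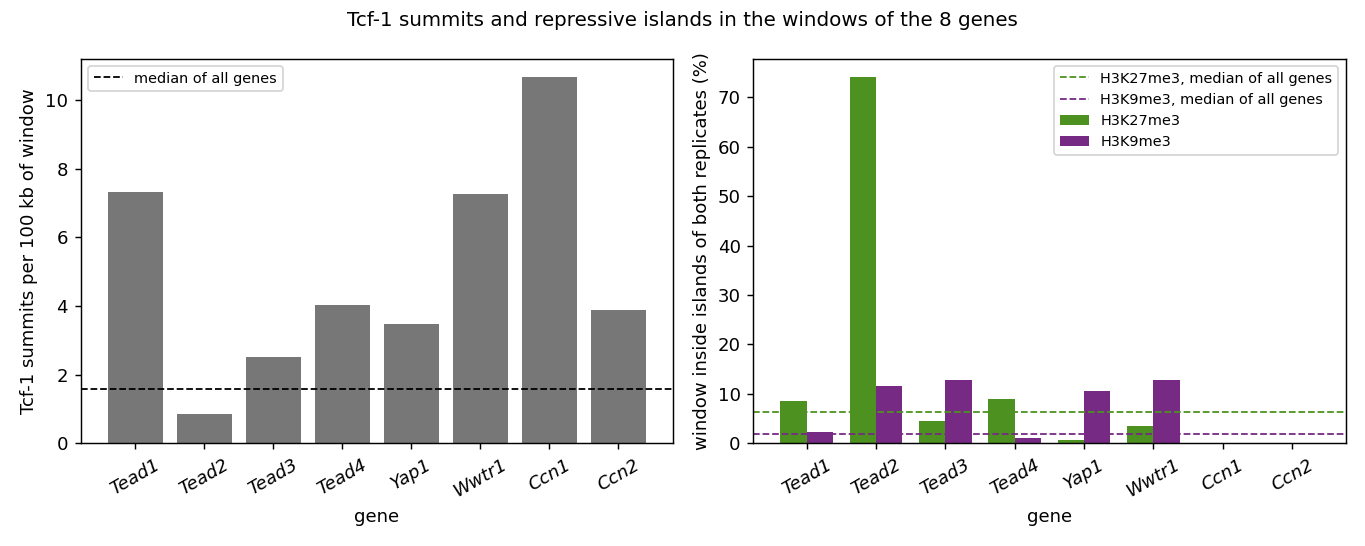
Left, Tcf-1 summits per 100 kb of window for each gene, with the median of all genes as a dashed line at 1.59. Right, the share of each window (%) inside H3K27me3 and H3K9me3 islands of both replicates, with the medians of all genes as dashed lines. Tead2 reaches 74.2% for H3K27me3, and Ccn1 and Ccn2 are at 0 for both marks.

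Other genes of the pathway were set beside these from lists of 28 Hippo kinases and regulators, 20 further YAP targets and the 6 CCN genes, which include Ccn1 and Ccn2. Amotl2, Lats2 and Ptpn14 stand on both of the first 2 lists. A gained region lay in the window of 1 of 28 regulators, 4 of 20 targets and 3 of 6 CCN genes, and of 5.29% of all genes. Counted as regions, 1 of 320 near regulators, 4 of 284 near targets and 4 of 64 near CCN genes were gained, beside 1.08% of all regions. A lost region lay near no gene of the lists and near 0.498% of all genes. Targets with a gained region were Ccdc80, a matrix protein gene, with a summit of score 177, F3, which encodes tissue factor, with a score of 146, Crim1 with 73.2 and Rbms3 with 49.4. Among CCN genes, Ccn4 had 2 gained regions in its window, with scores of 60.8 and 54.4, the second of them nearest to Ndrg1. Ccn6 had 1, with 57.3. The gained region in the window of Limd1, an adaptor that binds LATS kinases, was nearest to Sacm1l. It was the single one of the 9 with no summit.

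By the exact permutation test of windows, 11 of the 20 targets had more peaks per 10000 in NIH3T3 than in DP and 3 had fewer, against 7 and 6 of the 28 regulators and 3 and 1 of the 6 CCN genes; of all genes, 14.5% had more and 29.9% fewer. Among the 11 targets with more, Myof, a membrane repair gene, differed by 2.94, Asap1 by 2.23, Rbms3 by 2.01 and Ankrd1, another common reporter of YAP activity, by 0.635. The 3 targets with fewer were Ptpn14, Fjx1 and Lats2, at -1.16, -0.822 and -0.629. Of the kinase genes among the regulators, Stk4, Lats1, Lats2 and Map4k4 had fewer peaks in NIH3T3. Their differences were -1.13, -1.02, -0.629 and -0.549 peaks per 10000, with an adjusted p of 0.0315 each by the exact permutation test. The kinase genes Stk3, Taok1, Taok2 and Taok3 did not pass. The other regulators with fewer were Dchs1 and Ptpn14, and those with more were Wwc1, Wwc2, Amotl1, Amotl2, Vgll2, Vgll3 and Wtip. The medians were 0.629 for targets, -0.162 for regulators and 0.679 for CCN genes, beside -0.271 over all genes tested.

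Regions lost in KO lay near 21 of 28 regulators, 18 of 20 targets and 4 of 6 CCN genes, and near 47.4% of all genes. Among regulators these were the kinase and scaffold genes Stk3, Stk4, Sav1, Lats1, Lats2, Mob1b, Taok1, Taok2, Taok3 and Map4k4, the upstream genes Nf2, Wwc1, Wwc2, Frmd6, Fat4 and Dchs1, and Amot, Amotl1, Vgll4, Limd1 and Ptpn14. Among targets they were all but Foxf2 and Amotl2, and among CCN genes Ccn2, Ccn4, Ccn5 and Ccn6. Counted as regions, 54 of 104, 37 of 65 and 9 of 15 listed in both WT libraries were in neither KO library, beside 45.7% over the genome, and none of the lists held a region of the reverse pattern, which lay near 0.329% of all genes. Of the genes with neither a gained nor a lost region in either comparison, Vgll3 and Amotl2 had the most Tcf-1 summits of the regulators, with 8 each, and Mob1a had 3 and Wtip 2. Of the targets and CCN genes with neither, Ccn1 had 11 summits, Amotl2 8, Ccn3 2 and Foxf2 1.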

How the data were processed

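The authors' ATAC-seq lists hold peak positions for each library alone, with no height. The authors' histone lists hold, for each island, read counts of ChIP and control, a deposited p-value and adjusted p, and a deposited ChIP over control ratio; the caller, SICER, is named in the deposited files. The authors' summit list is 1 pooled list with a deposited score of unstated scale. Per the submitters' processing notes, Bowtie2 2.2.9, STAR 2.5, MACS2, Picard, FastQC and Trim Galore were used, with builds GRCh37, GRCm38 and mm10, with no word on which file each one made. Of 321 samples, 16 had a file of their own; the other libraries were not analysed here.

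Gene positions and promoters came from RefSeq, GRCm38.p6; exons were not used. Peaks of several libraries were merged where they overlapped by at least 1 bp, and 293 peaks on unplaced sequence were left out. Fisher's exact test was used per region and the exact two-sided permutation test per gene, with Benjamini-Hochberg adjustment over all regions or genes and a threshold of 0.05 (Python 3.11.15, numpy 2.4.6, pandas 2.3.3, SciPy 1.17.1, matplotlib 3.10.9). Both were tested on simulated data. The genes and lists were chosen with earlier results of these data known. Named from the lists were genes with a call and up to 5 more per list with the most summits. The file names carry day tags 2 and 4 for NIH3T3 replicates 1 and 2 and replicates 3 and 4, used as batches. Same-numbered Tcf-1 RV and Empty RV libraries deviated together from their group means, with correlations across regions of 0.138 to 0.208. They were taken as pairs from this hint in the data. Differently numbered libraries of the same day tag correlated at 0.197 and 0.0203 for replicates 1 and 2, and at 0.221 and 0.0296 for replicates 3 and 4. The highest of these values was not from a same-numbered pair, so the pairing by number is uncertain. Alternatives were other windows, overlap rules, list lengths, left-out libraries, batches and pairs.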

Additional observations from a re-analysis of the deposited data

Results flagged for a closer look

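The Tcf-1 RV minus Empty RV difference had opposite signs in the 2 day tags at 2 genes, without a test of the difference. At Tead3 it was -0.206 peaks per 10000 in replicates 1 and 2, which carry day tag 2, and 0.358 in replicates 3 and 4, which carry day tag 4. At Yap1 it was -0.138 in replicates 1 and 2 and 0.199 in replicates 3 and 4.

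A single library stood apart from the other 3 of its group at 2 genes. Empty RV replicate 4, the longest Empty RV list, was the lowest at Tead4, with 1.38 peaks per 10000, and the highest at Ccn2, with 1.21. Chance alone sets apart about 1 in 20 of such groups, and 16 were examined.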

How the results depend on the processing

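The presence patterns depended on list length, window and overlap. With the same number of widest peaks, 1 region was gained with Tcf-1 RV, 1 was lost and 1 gained in KO, and 4 were called in NIH3T3 and not in DP; a peak covering at least 50% of the region gave 1 gained and 13 called in NIH3T3. Gained regions numbered 1 in gene bodies, 1 with 10 kb, 4 with 100 kb and, in alternatives chosen after seeing the data, 1 when the gene had to be the nearest and 7 with at least 3 of 4 libraries. In replicates 1 and 2, 12 were gained; in replicates 3 and 4, 3 were gained and 1 was lost. The replicate block over Tcf-1 RV and Empty RV pairs gave 8 gained and 0 lost. Regions lost in KO numbered 1 in gene bodies, 2 with 10 kb, 2 when nearest, and 21 under the replicate block of 1 of 2 pairs. KO and WT replicate numbers did not pair (correlation -0.190), and the crossed pairing, chosen after seeing the data, also gave 21. Leaving out 1 library in turn gave 2 to 7 gained, 7 with Tcf-1 RV replicate 3 left out, 7 to 20 lost in KO, 20 with WT replicate 1 left out, 20 to 26 called in NIH3T3, and 4 to 5 genes past the NIH3T3 minus DP test. That test passed 7 genes in gene bodies and 7 with 10 kb. The cause was not tested.

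For Tcf-1 RV minus Empty RV and NIH3T3 minus DP, signs turned at 5 genes. Among them were Tead2, which passed the NIH3T3 minus DP test, and Ccn2, the largest Tcf-1 RV minus Empty RV difference of the 8. For KO minus WT, signs turned at Tead2, Tead3, Tead4, Yap1 and Ccn1. For Tcf-1 RV minus Empty RV, Wwtr1 was 1.00 peaks without division by list length and 0.106 in replicates 3 and 4; Tead3 and Yap1 were -3.35 and -3.80 covered base pairs per Mb of listed peaks, -0.206 and -0.138 in replicates 1 and 2, and ranged from -0.0897 to 0.206 and from -0.142 to 0.216 with 1 library left out; Ccn2 was -0.0204 in the gene body, and 0.477 to 0.615 with 1 library left out. For NIH3T3 minus DP, Tead3 was 1.57 with equal lists, 2.88 undivided, 55.8 covered base pairs per Mb, 0.358 in the body, 0.0468 with 10 kb and 0.302 with 100 kb; Tead2 was 0.186 in the body; Yap1 was -0.366 with 100 kb. Summits numbered 34 above the median score, 35 in gene bodies and 44 with 10 kb. H3K27me3 lay within 5 kb of a gene end at 3 genes, and H3K9me3 within 1 kb at 2 and within 5 kb at 2. Empty RV or Tcf-1 RV against WT alone was not run as a test, as too few libraries can reach the threshold. Read depth is unknown, so a peak that is not listed may be one that was not detectable.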

Other observations

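Genes elsewhere in the genome had profiles close to those of 4 of the 8 genes across the 12 libraries. Likeness was the Euclidean distance of peaks per 10000 listed peaks, among genes that averaged at least 5 peaks per library. Closest to Tead1 were Cdh2, which encodes N-cadherin, Hsf2bp and Thsd7a, at distances of 0.761, 0.966 and 1.04. For Wwtr1 they were Prkd1, Spp1, which encodes osteopontin, and Sh3rf3, at 0.805, 0.805 and 0.823. Tead4 was nearest to Ceacam20, Man2a2 and Furin, at 0.715, 0.791 and 0.875, and Yap1 to Afap1, Dnmbp and Taf4b, at 0.822, 0.887 and 0.999. The distances describe these libraries, whose groups and list lengths all genes share.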
